A study of Mus musculus with 30 samples.

Results

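Colonocytes given TNF, TGFB1 and BMP2 together were compared with untreated colonocytes, using 6 of the 30 libraries of the series. The combination group, titled Flx_TNFa+TGFb+BMP2, and the control group, titled Flx_Ctl, held 3 libraries each and were taken by their titles. All were mouse cells in culture that the submitters label IMCfl/fl Smad4+, so control and treated cells shared that floxed, Smad4-positive background. Cells given TNF alone (Flx_TNFa) and cells given TGFB1 with BMP2 (Flx_TGFb+BMP2), 3 libraries each, were used where the combination was set against its components. The sources used here give no ligand dose, treatment time or number of cell lines behind the label. The series description calls the libraries biological replicates, but nothing says that they came from separate animals, so a p-value here reflects how much these samples varied and that spread may be technical.

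TGFB and BMP ligands bind pairs of serine/threonine kinase receptors. TGFB receptors mainly phosphorylate SMAD2 and SMAD3, BMP receptors phosphorylate SMAD1, SMAD5 and SMAD9, and each set enters the nucleus with the shared partner SMAD4. TNF acts through TNFR1 and the IKK kinases, which release NF-kB from its IkB inhibitors. NF-kB switches on chemokines, adhesion molecules and its own inhibitors, and in the colon Ccl20 attracts lymphocytes and dendritic cells that carry Ccr6.

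The 6 libraries held 21.6 to 37.8 M recovered reads over 11481 genes listed in the tables of both groups. Replicate 3 was the shallowest library of each group and stood apart from the others. The chi-square per gene between control replicates was 4.31 for 1 and 2 and 13.2 for 1 and 3, and with all 3 ligands it was 6.36 and 8.87 for those pairs. Levels are reads divided by the effective library size in M (CPM), and changes are differences of log2(CPM + 1), which understate the change of low genes. The cell type label was checked against marker lists. Of 25 epithelial markers, 17 were not listed in both tables, among them Epcam, Vil1, Cdx1, Cdx2 and Ocln, and Cdh1, the epithelial cadherin, stood at 0.943, 1.39 and 1.03 CPM without ligands and at 1.14, 1.60 and 0.743 CPM with all 3 ligands. The control means of the mesenchymal genes Col1a1 and Vim, chosen after their values were seen, were 2103 and 3055 CPM. Other fibroblast markers varied widely in control mean, with Col3a1 at 1159, Dcn at 473 and Col1a2 at 31.4 CPM. Pdgfrb, Pdgfra and Postn stood at only 2.90, 2.36 and 2.99 CPM. Since most of the epithelial markers were not listed, the cells are called colonocytes only because the labels do so. Over all tested genes 21.1% were higher and 20.2% lower with all 3 ligands, and the marker counts that follow stand beside those shares. Of the 8 epithelial markers tested 1 rose and 3 fell, and their summed level ran from 375 to 387 CPM in the controls and from 318 to 319 CPM with all 3 ligands. Most of that sum was 1 gene, Tjp1, whose mean went from 266 to 220.2 CPM. Krt19 and Tspan8 also fell, by 0.59 and 0.42, while Krt8 rose by 1.28. The fall of Tspan8 was lost in 5 of 15 settings. With total reads as the scaling 5 of the 8 markers fell, without 1 library 2 to 4, and with the replicate block 2 rose and 4 fell. Of the 16 fibroblast and smooth muscle markers tested 6 rose and 2 fell, and they summed to 9192 to 9442 CPM in the controls and to 9809.8 to 10258 CPM with all 3 ligands. Of 22 leukocyte markers 3 were tested, 1 rose (Csf1r) and 1 fell (Cd68), and Ptprc and Lyz2 were not listed in both tables. The rise was lost without control replicate 1 or combination replicate 1 or 2, and the fall without control replicate 2. They summed to 49.4 to 64.8 CPM in the controls and to 47.3 to 53.7 CPM with all 3 ligands. Of 12 endothelial markers 3 were tested, 1 rose (Kdr) and 2 fell (Esam and Plvap), and Pecam1 and Cdh5 were not listed in both tables. The 3 summed to 31.2 to 36.6 CPM in the controls and to 39.6 to 42.1 CPM with all 3 ligands. The higher sum came from Kdr, a VEGF receptor gene, whose mean went from 3.77 to 20.5 CPM. Esam and Plvap changed by -0.50 and -0.83, so the sum does not show a rise of the markers as a set. In bulk libraries, fewer cells of a type and less RNA per cell cannot be told apart, and the part of these markers in the results was not tested.

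Promoter sequences are shown for Ccl20, which the series is about, for Cxcl10 and Nfkbie, which are among the largest rises and hold a match to the NF-kB consensus, and for Snai1, a large rise that holds none. They were chosen after the values and matches were seen. Each run is the 250 bases before the annotated start of the RefSeq table (build GRCm38.p6), 5′ to 3′ on the gene's strand, and capitals mark each match to the NF-kB consensus on either strand. The windows lie at chr1:83116516-83116765 (plus strand) for Ccl20, chr5:92348890-92349139 (minus strand) for Cxcl10, chr17:45555450-45555699 (plus strand) for Nfkbie and chr2:167537945-167538194 (plus strand) for Snai1.
Ccl20: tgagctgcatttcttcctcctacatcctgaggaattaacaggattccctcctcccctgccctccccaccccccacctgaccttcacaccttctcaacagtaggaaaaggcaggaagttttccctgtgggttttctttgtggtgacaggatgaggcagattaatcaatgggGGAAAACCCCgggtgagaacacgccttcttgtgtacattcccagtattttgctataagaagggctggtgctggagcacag
Cxcl10: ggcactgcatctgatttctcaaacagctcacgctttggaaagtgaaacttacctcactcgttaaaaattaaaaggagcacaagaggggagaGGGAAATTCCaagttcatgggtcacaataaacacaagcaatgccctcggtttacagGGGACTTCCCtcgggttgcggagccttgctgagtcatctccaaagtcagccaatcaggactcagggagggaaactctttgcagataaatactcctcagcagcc
Nfkbie: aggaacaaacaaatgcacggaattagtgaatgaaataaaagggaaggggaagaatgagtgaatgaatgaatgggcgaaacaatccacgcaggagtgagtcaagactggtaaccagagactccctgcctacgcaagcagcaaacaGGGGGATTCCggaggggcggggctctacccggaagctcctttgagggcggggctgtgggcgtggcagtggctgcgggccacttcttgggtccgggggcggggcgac
Snai1: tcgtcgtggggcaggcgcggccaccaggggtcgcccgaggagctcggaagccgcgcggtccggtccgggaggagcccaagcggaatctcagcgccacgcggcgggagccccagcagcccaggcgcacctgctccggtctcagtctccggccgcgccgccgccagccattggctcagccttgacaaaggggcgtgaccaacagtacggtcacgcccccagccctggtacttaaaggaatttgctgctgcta
In Ccl20 the match GGAAAACCCC began 80 bases before the start. In Cxcl10 the matches GGGAAATTCC and GGGACTTCCC began 159 and 103 bases before it, and in Nfkbie the match GGGGGATTCC began 106 bases before it. The search covered 300 bases around each start, and 5.24% of the 11183 such windows of tested genes held the consensus. Of the 15 largest rises described next, 10 had a window and 4 of these held a match. The 4 are genes with a match in any of their windows, whereas 5.24% is a share of windows, which belong to 8738 genes. In Lamb3 the match lay after the start in 1 window and before it in another. Beside the NF-kB consensus 6 other motifs were searched on both strands. TGANTCA (AP-1) was held by 4.95% of windows, GTCTAGAC by 0.232%, CAGAC by 46.7%, CAGACA, which contains CAGAC, by 15.4%, GGCGCC by 21.7% and GGAGCC by 41.9%. Among the largest rises, Cxcl10, Nfkbie and Olr1 held TGANTCA, so the NF-kB consensus was not the only motif present. The TGAGTCA in the Cxcl10 and Nfkbie runs above is not capitalized. A match describes these letters and shows no binding.

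With all 3 ligands, 2420 genes were higher (21.1% of those tested) and 2317 were lower (20.2%) than in the controls. Together 4737 of 11471 genes (41.3%) passed an adjusted p of 0.05 by limma with Benjamini-Hochberg adjustment over all genes, and 5656 had an unadjusted p under 0.05. Most changes were small. Among called genes, 208 rises and 94 falls were larger than 1 on the log2 scale. The groups did not overlap for 2970 genes that were higher in every treated library (25.9%) and 2965 that were lower in every one (25.8%). Scaling by total reads moved the median change of all genes from -0.01 to -0.11 and the split to 1450 higher and 3988 lower, so the direction of small changes depends on the scaling.

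**Figure D1:**
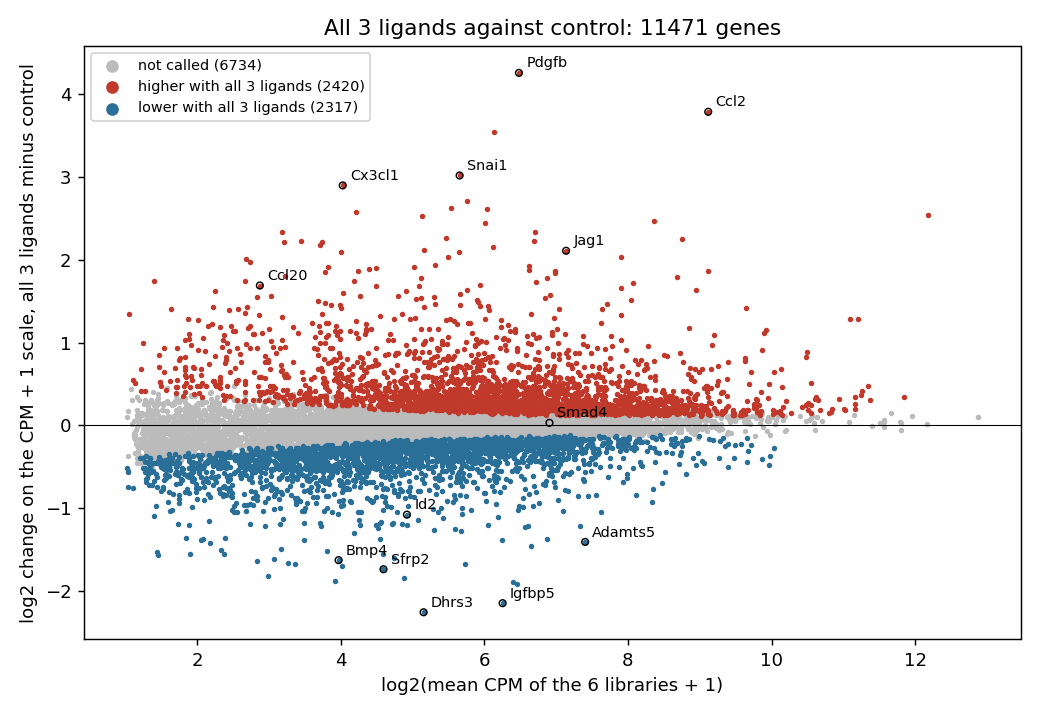
Log2 change of every tested gene (all 3 ligands minus control, CPM + 1 scale) against log2 of its mean CPM + 1, with 2420 genes higher (red), 2317 lower (blue) and the rest grey. Pdgfb and Ccl2 stand highest, at 4.26 and 3.79, and Dhrs3 lowest, at -2.26.

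The 15 largest rises among called genes whose groups did not overlap, with a mean of at least 5 CPM in the higher group, covered growth factor, chemokine, matrix and transcription factor genes. Pdgfb, which encodes the B chain of platelet-derived growth factor, stood at 6.93, 8.67 and 7.98 CPM in the controls and at 175, 184 and 149 CPM with all 3 ligands. It rose by 4.26 (SE 0.09, adjusted p = 5.88e-12), the largest change of any tested gene. Pdgfb lies on chromosome 15 at 79995874 to 80014977 of mm10, minus strand. Ccl2, which draws monocytes, went from 79.5, 75.4 and 67.2 CPM to 1129.6, 1047 and 929 CPM (3.79, SE 0.07, adjusted p = 3.47e-12), and the related chemokine Ccl7 rose by 3.55. Snai1, a repressor of epithelial genes, stood at 9.89, 9.51 and 10.6 CPM and then at 101, 90.2 and 75.5 CPM (3.02, SE 0.09). Treated libraries lay far above every control library in each of these genes, though the rule of choice already excludes overlap.

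Cx3cl1, a membrane-bound chemokine, rose by 2.90, and Col27a1, a fibrillar collagen gene, by 2.71. Has2, which makes hyaluronan, rose by 2.63 from a mean of 12.2 to 78.3 CPM. Cxcl10, an interferon-induced chemokine, rose by 2.62, and Nfkbie, which encodes an IkB inhibitor, by 2.58. Has2 and Nfkbie had no treated library near the control range, though the same rule excludes overlap. Further rises were those of Abtb2 at 2.53, the AP-1 subunit gene Junb at 2.47, the latent TGFB binding protein gene Ltbp2 at 2.44, the laminin chain gene Lamb3 at 2.34 and Olr1, a scavenger receptor gene, at 2.34.

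The 15 largest falls chosen by the same rule were smaller. Dhrs3, a retinal reductase gene, stood at 63.8, 73.6 and 37.2 CPM in the controls and at 11.7, 13.5 and 8.22 CPM with all 3 ligands, a change of -2.26 (SE 0.21, adjusted p = 2.17e-06). Igfbp5, which binds insulin-like growth factors, fell by 2.15 from 139.7, 155 and 78.5 CPM to 31.6, 30.8 and 18.1 CPM. In both genes and in Gas1, control replicate 3 lay below the other controls. Sdpr, a caveola coat gene, fell by 1.92, Gas1 by 1.89 and the thrombomodulin gene Thbd by 1.88. Sfrp2, a secreted Wnt antagonist, fell by 1.74, the Wnt pathway formin gene Daam2 by 1.70 and the imprinted gene Peg3 by 1.68. Bmp4, itself a BMP ligand, went from 24.1, 23.6 and 20.4 CPM to 5.90, 7.76 and 6.42 CPM and fell by 1.63. Sh2d4a, Fam46c, Wdr17, Palm3 and Ndnf fell by 1.84, 1.82, 1.68, 1.64 and 1.62.

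**Figure D2:**
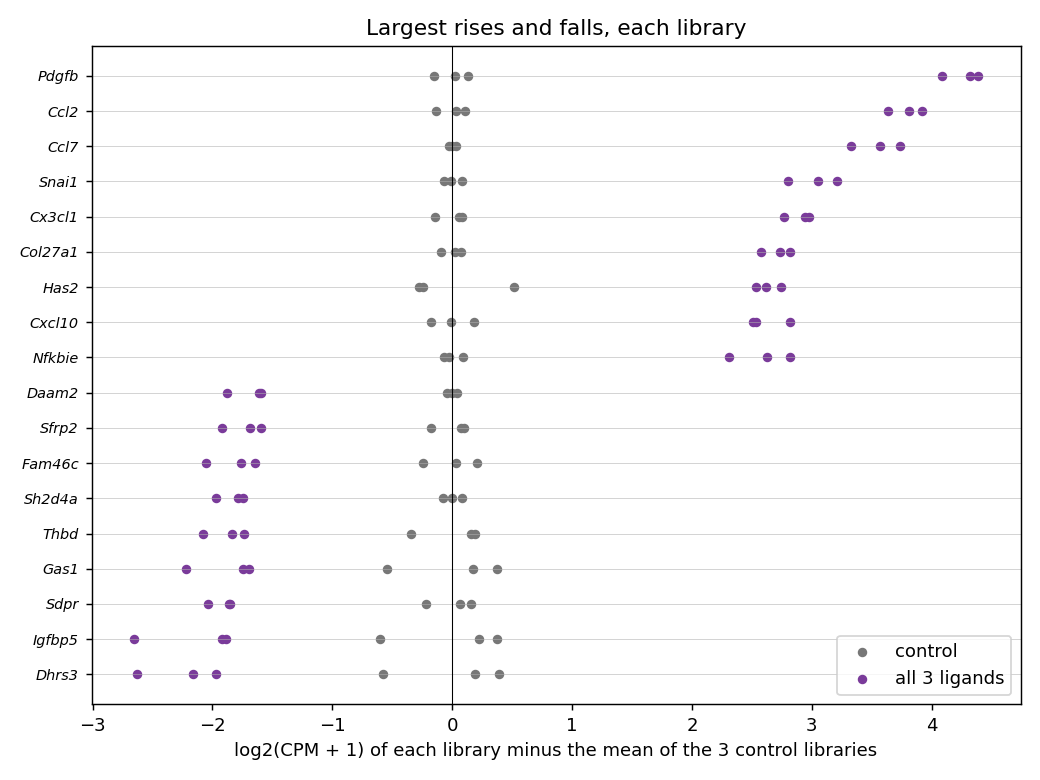
Log2(CPM + 1) of each library minus the mean of the 3 control libraries, for the 9 largest rises and 9 largest falls. Control points (grey) and points with all 3 ligands (purple) do not overlap in any gene, as the rule of choice requires.

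The counts of each list below stand beside 21.1% higher and 20.2% lower over all tested genes. A count near those shares is no result about the list. Among genes of the TGFB and BMP ligands and their antagonists, 10 of 18 tested rose and 4 fell, with a median change of 0.61 against -0.01 over all genes. Tgfb3, a TGFB ligand, rose by 1.40 from 75.0, 76.3 and 62.0 CPM to 196, 203 and 168 CPM. The activin subunit gene Inhba rose by 1.04 and the activin antagonist gene Fstl3 by 0.84. Inhbb, the other activin subunit gene, fell by 0.94 and Bmp4 fell as given above. The count of 4 falls dropped to 2 without control replicate 1.

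Of 13 receptor genes, 4 rose and 2 fell, not far from the shares over all tested genes (21.1% and 20.2%). Acvr1, a type I receptor for BMPs and activin, rose by 1.01 from 36.7, 30.7 and 36.9 CPM to 71.4, 71.0 and 70.6 CPM. The BMP type II receptor gene Bmpr2 rose by 0.74 and the TGFB type I receptor gene Tgfbr1 by 0.30. The TGFB type II receptor gene Tgfbr2 fell by 0.51 and the co-receptor gene Tgfbr3 fell by 0.98, from 38.9, 42.0 and 38.2 CPM to 19.1, 19.8 and 19.9 CPM. With the replicate number as a block, or with total reads as the scaling, 4 receptor genes fell in place of 2.

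Of the 8 SMAD genes, 4 rose and none fell. With total reads as the scaling 3 rose, and without 1 library 3 to 5. Smad5, a BMP-regulated SMAD, rose by only 0.17. Its call was lost with total reads and without control replicate 1 or 2 or combination replicate 1 or 3. Smad7, an inhibitory SMAD that is induced by both pathways and blocks their receptors, stood at 42.6, 35.9 and 41.4 CPM in the controls and at 166, 156 and 143 CPM with all 3 ligands (1.93, SE 0.07, adjusted p = 6.84e-10). Smad6, the inhibitory SMAD that acts mainly on BMP signals, rose by 1.22, and Smad3, a TGFB-regulated SMAD, by 0.51. Smad4 stood at 123, 117 and 114 CPM and at 127, 121 and 113 CPM, a change of 0.03 (SE 0.06, adjusted p = 0.737) with overlapping groups.

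Of the 22 TGFB target genes tested, 20 rose and none fell, with a median of 1.26. Pdgfb, Snai1 and Junb, given above, were among them. Pmepa1, a feedback inhibitor of TGFB signalling that was named after its value was seen, rose by 1.87 from 232, 224 and 257 CPM to 907, 873 and 827 CPM. Tgm2 and Fn1, the other two, changed by 0.20 and 0.01 (adjusted p = 0.217 and 0.916).

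Of the 15 BMP target genes tested, 5 rose and 2 fell, with a median of 0.06 that turned to -0.05 with total reads as the scaling. Id1, a helix-loop-helix inhibitor and the best-known BMP target, stood at 88.7, 94.2 and 75.3 CPM and at 90.2, 88.4 and 70.4 CPM, a change of -0.05 (SE 0.10, adjusted p = 0.684). Id3, a related target named after its value was seen, changed by 0.06 (adjusted p = 0.669), and the groups overlapped in both genes. Id2 fell by 1.08 from 37.9, 40.8 and 41.8 CPM to 18.8, 20.2 and 16.5 CPM. Dlx2, a homeobox gene, rose by 1.39, Smad6 by 1.22 and Runx2 by 0.49, while Zfp503 fell by 1.20. Under the replicate block, under total reads and without control replicate 3, 4 genes of the list fell in place of 2.

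Of the 23 genes of NF-kB subunits and inhibitors tested, 16 rose and 2 fell (median 0.41). The largest changes were in inhibitors. Nfkbia, which encodes IkB-alpha, stood at 36.3, 38.1 and 31.9 CPM and at 173, 178 and 159 CPM (2.23, SE 0.07, adjusted p = 1.22e-10), and Nfkbie went from 4.05, 4.63 and 4.19 CPM to 31.6, 36.3 and 25.2 CPM. Tnfaip3, which encodes the deubiquitinase A20 that restrains NF-kB, rose by 2.03, and the subunit gene Relb by 1.69. Cyld, another deubiquitinase gene, fell by 0.36. The count of 2 falls came to 1 without control replicate 1, 2 or 3 or combination replicate 3.

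Of the 16 genes of the TNF receptor complex and survival tested, 10 rose and 2 fell. Birc3, an inhibitor of apoptosis recruited to the receptor, rose by 1.90 from 9.38, 8.92 and 7.31 CPM to 36.6, 36.8 and 30.3 CPM. Tnfrsf1b, the second TNF receptor gene, rose by 1.40, while Tnfrsf1a, the main receptor gene, fell by 0.24. Bcl2l1, a survival gene, fell by 0.39.

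All 8 chemokine genes that passed the test, of 11 tested, rose, and the median was 1.69. Ccl20 stood at 2.32, 3.10 and 2.01 CPM in the controls and at 9.38, 10.9 and 10.2 CPM with all 3 ligands, a rise of 1.69 (SE 0.13, adjusted p = 3.88e-07) with no overlap. Ccl20 lies on chromosome 1 at 83116766 to 83119167 of mm10, plus strand. Cx3cl1 went from 2.50, 3.02 and 3.08 CPM to 29.4, 28.6 and 25.3 CPM, and Cxcl10 from 15.2, 17.2 and 19.8 CPM to 103, 128 and 105 CPM. Ccl9, Ccl25 and Cxcl12 did not pass. With total reads as the scaling, 1 chemokine gene fell.

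Of the 16 cytokine and EGF receptor ligand genes tested, 5 rose and 4 fell, not far from the shares over all tested genes (21.1% and 20.2%). Hbegf, an EGF receptor ligand gene, rose by 1.94, Csf1, the macrophage growth factor gene, by 0.89 and Ereg by 0.73. Il33, an alarmin gene, fell by 1.03 and Tnfsf18, a TNF family ligand gene, by 0.87. Csf2 was listed at 0, 0.388 and 0.134 CPM in the controls and at 2.04, 2.45 and 1.44 CPM with all 3 ligands. Of 10 adhesion molecule genes, 7 rose and 2 fell. Vcam1, to which leukocyte integrins bind, stood at 188, 189 and 167 CPM and then at 661, 742 and 509.6 CPM (1.79), Icam1 rose by 1.24 and Cd44 by 1.09. The 2 falls, of Alcam and Jam3, ended without control replicate 1, control replicate 2, or combination replicate 2 or 3, and Jam3 also without combination replicate 1.

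Of the 38 interferon-stimulated genes tested, 30 rose and 1 fell (median 0.62). The rises numbered 24 with total reads as the scaling, 33 with the replicate block and 21 to 33 without 1 library. Mx2 rose by 1.81 from 1.76, 3.46 and 4.59 CPM to 11.1, 15.5 and 13.8 CPM. It belongs to a family of antiviral GTPase genes, but the annotation lists it as a polymorphic pseudogene. Gbp5, a guanylate-binding protein gene, rose by 1.39, Rsad2 by 1.24 and Rtp4 by 1.24. Control replicate 3 was the highest control in Mx2, Gbp5, Rsad2 and Rtp4. The Rtp4 controls stood at 21.2, 28.6 and 48.9 CPM. Ifit2 fell by 0.43. Of 22 genes of antigen processing and presentation, 11 rose and none fell, with rises of 0.59 for H2-Ab1, 0.50 for H2-T23 and 0.48 for Psmb10. Total reads as the scaling left 7 rises and 2 falls there, and 1 gene fell with the replicate block or without combination replicate 3. Of 8 complement and acute phase genes, 3 rose and 1 fell, led by Saa3 at 0.64 and C3 at 0.42, and the median of 0.07 turned to -0.02 with total reads. The falls there numbered 2 with total reads, with the block or without control replicate 3.

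Of the 43 genes of collagens, laminins and matrix glycoproteins tested, 26 rose and 6 fell (median 0.34). Lox, which cross-links collagen, rose by 1.28 from 1273, 1266 and 1284 CPM to 3278, 3180.2 and 2863 CPM. Bgn rose by 1.68 and Col5a3 by 1.03, while Col3a1, a fibrillar collagen gene, fell by 0.48 from 1190.4, 1222 and 1063 CPM to 821, 839.8 and 829 CPM. Of 31 matrix protease and inhibitor genes, 13 rose and 8 fell, with a median of 0.06 that was -0.02 with total reads. Mmp14, a membrane-bound matrix protease gene, rose by 1.42, Timp1 by 1.33 and Adam12 by 1.20, whereas the aggrecanase genes Adamts5 and Adamts1 fell by 1.41 and 1.23. Adamts5 went from 241, 242 and 252 CPM to 92.6, 85.1 and 97.5 CPM. Of 10 integrin genes 6 rose and 1 fell, led by Itga5, the fibronectin receptor chain, at 1.72 and Itgb5 at 1.47.

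Of 13 epithelial-mesenchymal transition factor and cadherin genes, 5 rose and 3 fell. Snai1 led the rises, Cdh11, a mesenchymal cadherin gene, rose by 0.84 and the repressor gene Zeb2 by 0.71. Snai2 and Twist1, which encode related factors, fell by 0.52 and 0.45. The change of Cdh1 was 0.02 (adjusted p = 0.949) and that of Vim was -0.02 (adjusted p = 0.791).

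Of 28 genes of PDGF, VEGF and FGF signalling, 15 rose and 8 fell. After Pdgfb, the VEGF receptor gene Kdr rose by 2.18 from 3.70, 3.10 and 4.50 CPM to 19.4, 20.8 and 21.2 CPM, and Vegfc and Pdgfc rose by 1.56 each. Fgf18 fell by 0.93. Of 24 AP-1 and immediate early genes, 12 rose and 3 fell, and with total reads as the scaling 6 fell. Nr4a2, a nuclear receptor gene, rose by 1.32, Fosb by 1.09 and Myc by 0.92, while the phosphatase gene Dusp1 fell by 1.18.

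Of 20 genes of the Wnt pathway and intestinal stem cells, 10 rose and 6 fell, and Lgr5, Ascl2 and Olfm4, which mark intestinal stem cells, were not listed in both tables. Wisp1, a Wnt-induced matrix protein gene, rose by 1.63, Wnt11 by 1.12 and the receptor gene Ephb2 by 0.97. The antagonist genes Sfrp2 and Sfrp4 fell by 1.74 and 1.36. Of 14 Notch pathway genes, 4 rose and 8 fell (median -0.29). Jag1, a Notch ligand gene, stood at 51.9, 50.0 and 53.9 CPM and then at 225, 233 and 226 CPM (2.11, SE 0.05), and the Notch target gene Hes1 rose by 0.82. Notch1 and Notch3, which encode receptors, fell by 0.66 and 0.57.

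Of 41 cell cycle driver genes, 12 fell and 4 rose, with a median of -0.10. Total reads as the scaling left 25 falls and 3 rises, and the replicate block 17 falls and 7 rises. The D-type cyclin genes Ccnd2 and Ccnd1 fell by 0.85 and 0.49, and Ccnd2 went from 219, 225 and 222 CPM to 119.8, 116 and 132 CPM. Cdc25a and the replicative helicase gene Mcm4 rose by 0.31 and 0.27. Of 14 cell cycle inhibitor genes 7 rose and 6 fell, with a median of 0.07 that was -0.03 with total reads. Gadd45b, a stress-induced growth arrest gene, rose by 1.16, and Cdkn2b, a TGFB-induced inhibitor of cyclin-dependent kinases, by 0.94 from 80.7, 82.1 and 75.5 CPM to 161, 166 and 136 CPM. Cdkn2d fell by 0.73.

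Of 22 cholesterol synthesis genes, 13 fell and 1 rose (median -0.26), and 8 fell without control replicate 1. Mvk, which phosphorylates mevalonate, fell by 0.57, Lss by 0.43 and Idi1 by 0.42. Mvk went from 31.5, 30.2 and 22.4 CPM to 19.5, 19.2 and 16.5 CPM, so the treated libraries lay below every control library. Of 18 heat shock and unfolded protein stress genes 7 rose and 4 fell, with a median of 0.06 that was -0.04 with total reads. The chaperone gene Hspa5 rose by 0.68, Xbp1 by 0.85 and Herpud1 by 0.72, whereas Chac1 fell by 0.81. The 4 falls came to 2 without control replicate 2 and to 1 without combination replicate 2.

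**Figure D3:**
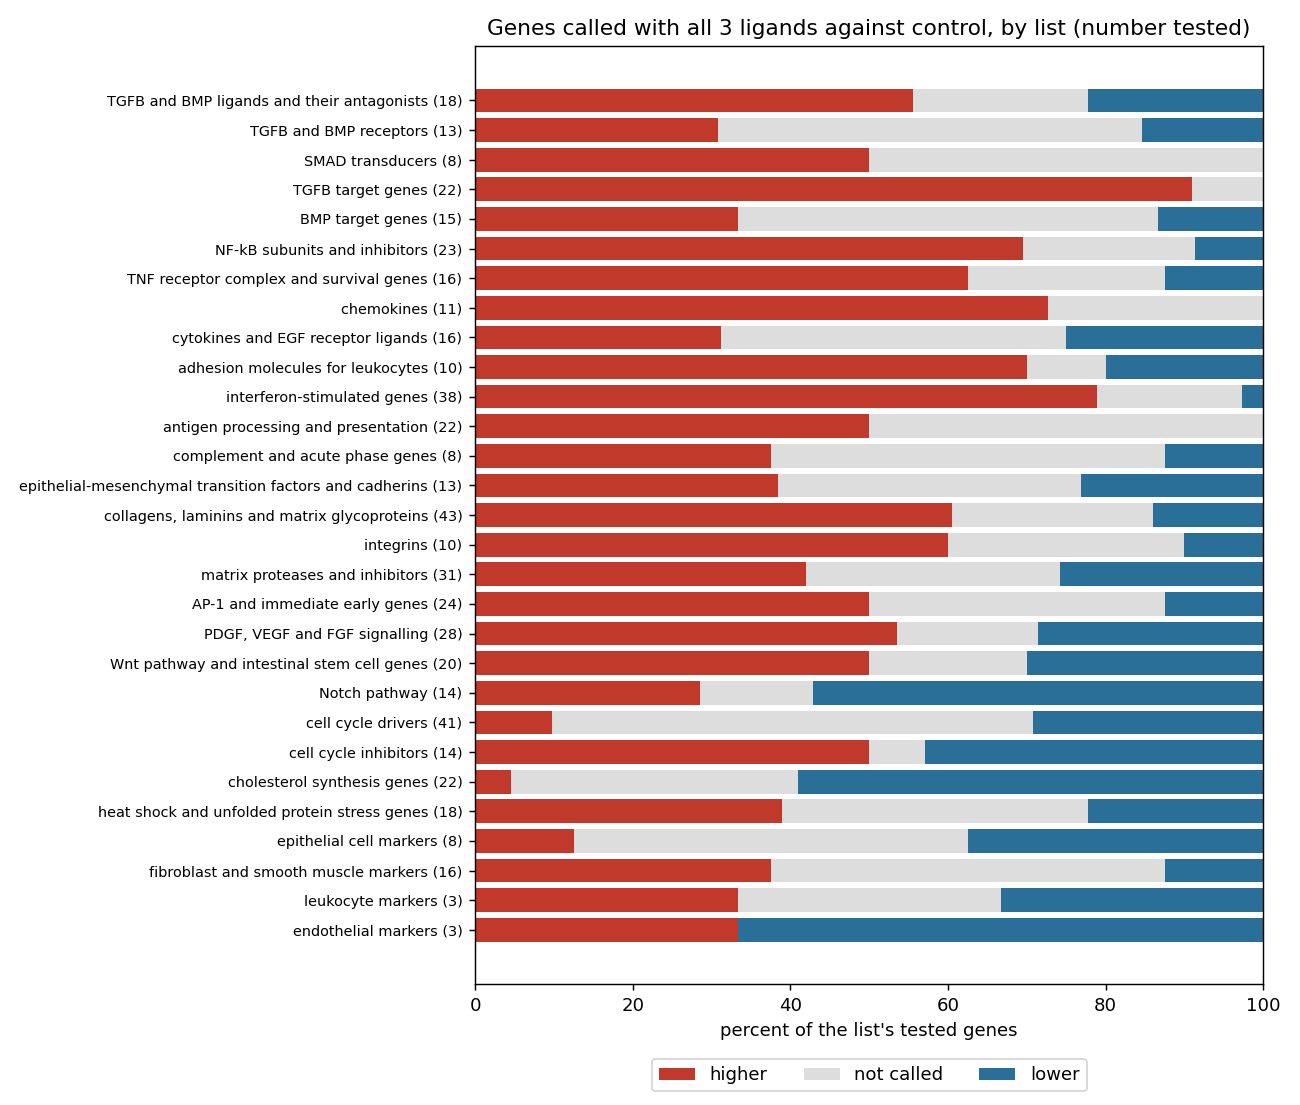
Percent of the tested genes of each of 29 lists that were higher (red), not called (grey) or lower (blue) with all 3 ligands against control. TGFB targets (20 of 22 higher) and interferon-stimulated genes (30 of 38 higher) lean most to red among the larger lists, and cholesterol synthesis genes (13 of 22 lower) to blue.

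The combination was then set against each of its components over the 12 colonocyte libraries, with 11434 genes listed in all 3 tables. Levels were rescaled over the 12 libraries and differ slightly from those above. Against TNF alone, 3707 genes differed (32.4%), of which 1888 were higher (16.5%) and 1819 lower (15.9%). Against TGFB1 with BMP2 alone, 472 genes differed (4.13%), with 351 higher (3.07%) and 121 lower (1.06%). For scale, TNF alone differed from the controls in 886 genes (7.75%) and TGFB1 with BMP2 alone in 3775 (33.0%), and these comparisons share libraries with those above. With total reads as the scaling the splits were 1240 higher and 3152 lower against TNF alone, and 296 and 180 against TGFB1 with BMP2 alone. The latter count was 998 (632 higher and 366 lower) with the replicate block, and came to 299 without replicate 1 of that group and to 279 without combination replicate 2.

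Of 22 TGFB targets, 20 were higher than with TNF alone and 6 were higher, 1 lower, than with TGFB1 and BMP2 alone. Of 23 genes of NF-kB subunits and inhibitors, 13 were higher than with TGFB1 and BMP2 alone and none lower, while against TNF alone 1 was higher and 4 lower. Nfkbia averaged 35.3 CPM in the controls, 168 with TNF, 43.8 with TGFB1 and BMP2 and 170.4 with all 3. Smad7 averaged 39.8, 40.1, 159.9 and 155 CPM in the same order, and Snai1 9.96, 11.9, 80.5 and 89.0 CPM. With all 3 ligands Nfkbia differed from TNF alone by 0.02 (SE 0.07), Smad7 from TGFB1 with BMP2 alone by -0.04 (SE 0.08) and Snai1 by 0.14 (SE 0.10), and none of these differences passed the test.

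The median change of the BMP targets from control was -0.34 with TNF, 0.29 with TGFB1 and BMP2 and 0.06 with all 3, and 10 of 15 were higher and 2 lower than with TNF alone, while none was higher and 4 were lower than with TGFB1 and BMP2 alone. Id1 stood at 72.0, 65.5 and 64.3 CPM with TNF, at 102, 98.3 and 83.1 CPM with TGFB1 and BMP2 and at 90.5, 88.5 and 70.4 CPM with all 3. It was 0.29 above TNF alone (adjusted p = 0.0294 by limma) and differed from TGFB1 with BMP2 alone by -0.19 (adjusted p = 0.403). Dlx2 averaged 35.8, 28.9, 117 and 96.0 CPM over controls, TNF, TGFB1 with BMP2 and all 3, and Smad6 28.2, 21.5, 76.4 and 68.3 CPM. Of 43 matrix genes, 26 were higher and 6 lower than with TNF alone, and 2 were higher and none lower than with TGFB1 and BMP2 alone. Lox averaged 1269, 1304, 3124 and 3112 CPM in the same order.

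**Figure D4:**
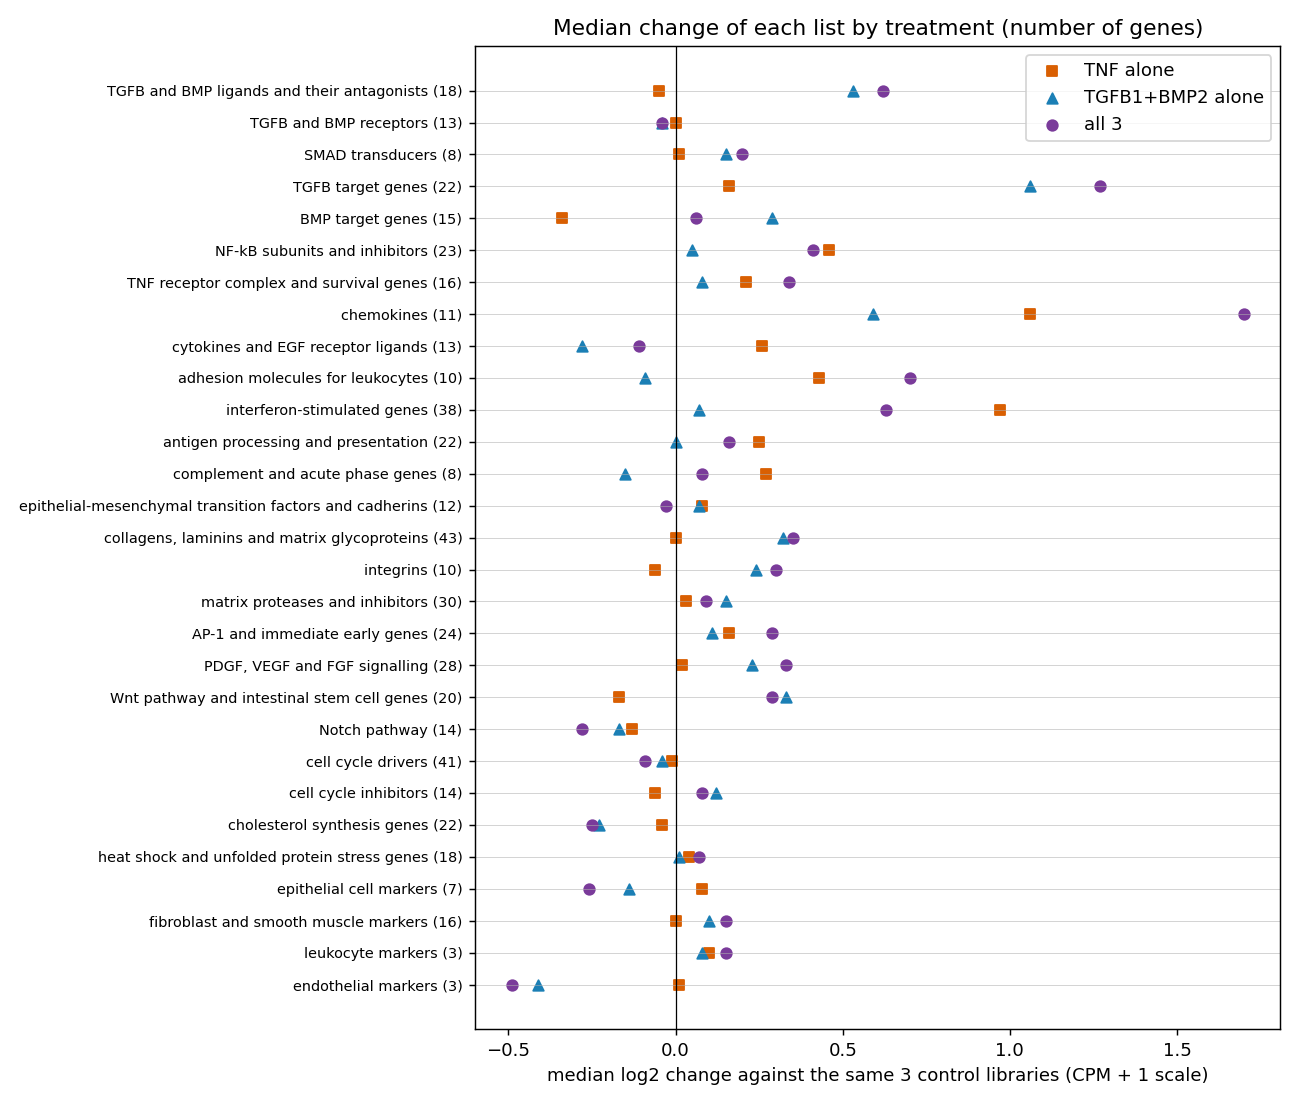
Median log2 change against the same 3 control libraries for each list, with TNF alone (squares), TGFB1 and BMP2 alone (triangles) and all 3 ligands (circles). For chemokines the medians were 1.06, 0.59 and 1.70, and for interferon-stimulated genes 0.97, 0.07 and 0.63, and all 3 treatments share their controls.

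A total of 157 genes differed the same way from both components (1.37%), 101 higher (0.883%) and 56 lower (0.490%), or 66 and 101 with total reads as the scaling. Blocking on the replicate number gave 406 such genes, 227 of them higher and 179 lower. The count was 90 without TGFB1 and BMP2 replicate 1, 87 without combination replicate 1 and 79 without combination replicate 2. Among the 8 largest of the higher genes, Pdgfb averaged 7.83 CPM in the controls, 24.5 with TNF, 66.1 with TGFB1 and BMP2 and 169.7 with all 3. Cx3cl1 averaged 2.85, 10.9, 10.2 and 27.8 CPM in the same order, and the combination lay above each component by 1.28 and 1.37. Il1rl1, which encodes the receptor for Il33, averaged 2.84, 6.01, 8.41 and 17.0 CPM over the 4 groups in the same order. Fbxo32, a muscle-type ubiquitin ligase gene, was 1.33 above TNF alone and 0.82 above TGFB1 with BMP2 alone. Olr1, Gfpt2, Cish and Abtb2 completed the 8.

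Among the 8 largest of the lower genes, Id2 averaged 40.0 CPM in the controls, 25.6 with TNF, 27.8 with TGFB1 and BMP2 and 18.6 with all 3. Frmd4b averaged 306, 265, 272 and 197 CPM, and Fam46c 11.4, 6.61, 4.15 and 2.51 CPM. Daam2, Peg3, Rnf39, Snhg11 and Itga2b completed the 8. In these genes the mean of the combination lay below both components, which the rule of choice requires.

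A further 112 genes (0.980%) were lower than with TNF alone and higher than with TGFB1 and BMP2 alone, and 15 of the 38 interferon-stimulated genes were among them. Only 33 genes (0.289%) lay above TNF alone and below TGFB1 with BMP2 alone. Ccl20, in the first set, stood at 58.4, 59.0 and 45.5 CPM with TNF, at 0.624, 0.602 and 1.10 CPM with TGFB1 and BMP2, and at 9.40, 10.9 and 10.2 CPM with all 3. The combination was 2.30 below TNF alone (adjusted p = 1.75e-09) and 2.66 above TGFB1 with BMP2 alone (adjusted p = 2.08e-09), by limma over 12 libraries. The next genes were taken from those named for their lists. Gbp5 averaged 1.96, 18.2, 1.74 and 6.89 CPM over controls, TNF, TGFB1 with BMP2 and all 3. Vcam1 averaged 180.3, 944, 112 and 638 CPM, and Rsad2 32.2, 119.5, 32.1 and 77.2 CPM. In these genes the mean of the combination was also above that of the controls, whereas it was below in Tnfsf18 (2.96 against 6.25 CPM) and Ifit2 (57.3 against 77.0 CPM). Of all 112 genes, 88 had a higher and 23 a lower mean with all 3 ligands than in the controls.

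Whether the change with all 3 ligands equalled the sum of the separate changes on the log2 scale was tested for every gene. Ccl20 was the 1 gene called (0.00875%), and 356 genes had an unadjusted p under 0.05. With the replicate block 30 genes were called, 4 higher and 26 lower, and the adjusted p of Ccl20 was 0.000768. Its change with all 3 ligands was lower than the sum by 1.34, a difference of -1.34 (SE 0.19, adjusted p = 0.0384). The call was lost in 8 of 12 fits that left out a library (control 1, TNF 1 and 2, TGFB1 with BMP2 1, 2 and 3, and combination 1 and 3), and with a pseudocount of 0.25, where the difference was -0.96 and the adjusted p 0.752. TGFB1 with BMP2 put Ccl20 at a mean of 0.776 CPM, below the 1 CPM added to each value, so the size of the difference depends on that addition, and ratios of the group means with nothing added gave -0.75, with no test. Ccl2 came next at -0.73 (adjusted p = 0.0513), followed by Cxcl10 at -0.96 (adjusted p = 0.0899), and neither passed.

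**Figure D5:**
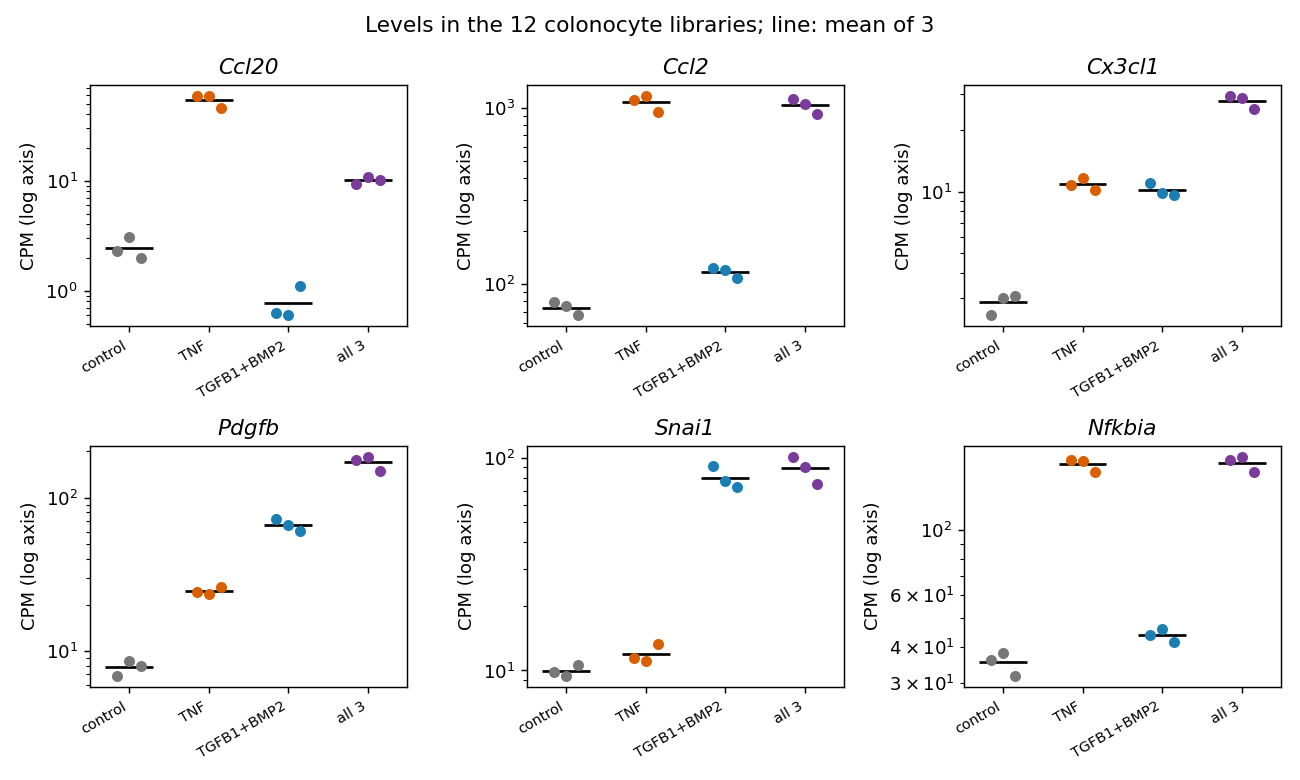
CPM on a log axis in each of the 12 colonocyte libraries for 6 genes, with the mean of each group as a line. Ccl20 is at 45.5 to 59.0 CPM with TNF and 9.40 to 10.9 CPM with all 3, Nfkbia and Ccl2 with all 3 stand near TNF alone, Snai1 near TGFB1 with BMP2, and Pdgfb and Cx3cl1 above both.

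Genes that a single table lists do not enter the counts above. The 107 listed only in the control table had no reads for the combination and were not tested. Of 92 genes listed only in the table with the combination, 68 had control reads in the other control table, 67 of these were tested, and 51 rose and none fell, which the listing itself favours. The largest were Sox8, at 0.485, 0.416 and 0.267 CPM in the controls and 9.88, 10.9 and 5.98 CPM with all 3 ligands, Adamts15, with a control mean of 0.313 CPM (SD 0.0560, n = 3) and then at 4.37, 5.33 and 8.08 CPM, and Crispld2, at 0.230, 0.361 and 0.312 and then 5.36, 4.92 and 4.37 CPM. Olfm2 was at 0.0765, 0.0277 and 0.0892 CPM, which is a few reads, and at 4.37, 3.79 and 3.28 CPM.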

How the data were processed

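RNA was isolated from cultured colonocytes, and 6 TruSeq Stranded mRNA libraries, or 12 with each treatment alone, were read as paired-end reads, per the labels. What separates the replicate libraries is not stated there. The authors deposited tables whose columns hold a signal, reads divided by the effective library size in M. The submitters' processing notes name edgeR 3.4.2, HTSeq 0.5.4p5, TopHat2 2.1.0, bcl2fastq 2.16, CASAVA and SAMtools 1.3.1, with build mm10. No strand setting is stated, so overlapping genes are uncertain.

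Each value was divided by that of 1 read (100% whole within 0.05), and reads were scaled by TMM over 6 libraries. limma 3.58.1 (R 4.3.3, eBayes with a trend, two-sided) tested log2(CPM + 1) of genes with a mean of at least 1 CPM, with Benjamini-Hochberg adjustment at 0.05. The script was tested on simulated data. The fits had no replicate block. Deviations of same-numbered control and combination libraries correlated at 0.26, 0.13 and 0.33 and those of differently numbered ones at -0.33 to 0.21. Each same-numbered pair was over 0.1, so the numbers were taken to pair these 6 libraries, and the fit with the block is given beside results whose counts it moved by over 1.5 times. Genes were named by a rule: the 15 largest rises and falls, up to 4 per list in its main direction and 2 in the other, 8 above and 8 below both components, 4 that only a single table lists, and Smad4, Ccl20, Smad7, Id1, Nfkbia, Tnfaip3, Cdh1 and Epcam. Some genes that the rule names are not reported here. The members and lists were chosen with earlier results of these data known. Figures used Python 3.11.15 and matplotlib 3.10.9.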

Additional observations from a re-analysis of the deposited data

Results flagged for a closer look

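The effect of TNF on Ccl20 differed between cells with and without TGFB1 and BMP2 by a test of the difference itself, with a log2 value of -1.34 (limma over 12 libraries, adjusted p = 0.0384). Over 16 alternative settings the difference ran from -1.46 to -0.96 and the adjusted p from 0.000768 to 0.752, and 9 settings ended the call. Ratios of the group means with no pseudocount, an alternative chosen after seeing the data, gave -0.75 with no test.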

How the results depend on the processing

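The count of genes called against control, 4737, ran from 3661 to 5076 when each library was left out. It was 5668 with the replicate block, 5438 with total reads as the scaling, and stayed within 1.5 times under pseudocounts of 0.25 and 5, no filter, a minimum of 5 CPM, median-of-ratios scaling, control reads from either table and all 12 libraries. Leaving out libraries gave 2910 to 3968 genes against TNF alone, 279 to 570 against TGFB1 with BMP2 alone, 79 to 197 that differ the same way from both components and 0 to 10 for the sum test. The replicate block gave 998 against TGFB1 with BMP2 alone, 406 the same way from both and 30 for the sum test, in which total reads gave 2 and a pseudocount of 0.25 gave 0, and the cause was not tested. Over the 12 libraries 17 of 18 same-numbered pairs correlated at over 0.1 (range 0.05 to 0.53), against -0.39 to 0.24 for 36 differently numbered pairs. For the change against control, of 2573 values of 173 named genes under 15 settings, 40 lost a call and none reversed, in 11 genes. Calls against the components and in the sum test are not part of that count. The planned edgeR, DESeq2 and voom fits were not run. The deposited columns are normalized values, and although reads came out whole, the tables lack most genes of few reads, so the value of 1 read could not be checked in the way set for count models. Depth limits genes near 1 CPM.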
